A study of Mus musculus with 6 samples.

Results

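Bone morphogenetic proteins (BMPs) are secreted ligands of the TGFβ superfamily. They bind complexes of type I receptors, among them those encoded by *Bmpr1a* and *Bmpr1b*, and type II receptors such as that encoded by *Bmpr2*, and the type I receptor then phosphorylates SMAD proteins that enter the nucleus with SMAD4. In the colon, stromal cells are a major source of both BMPs and their secreted antagonists, and BMP signaling is higher toward the luminal surface, where it favors differentiation of the epithelium, than at the crypt base. Here, 10 genes chosen by their symbols were examined, 7 ligand genes (*Bmp2*, *Bmp4*, *Bmp5*, *Bmp6*, *Bmp7*, *Bmp3* and *Gdf10*) and 3 receptor genes (*Bmpr1a*, *Bmpr1b* and *Bmpr2*). They were chosen with earlier results of these data known. All 10 were found among the 20327 gene symbols of the tag counts.

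To compare IL-11-producing with other stromal cells of the inflamed colon, RNA of sorted EGFP-Positive and EGFP-Negative cells was sequenced by 5′Tag-seq, which reads tags from the 5′ side of polyA RNA (n = 3 libraries per group). Both groups came from C57BL/6 male mice aged 9 to 15 weeks that carried *Il11-Egfp*, a reporter transgene in a bacterial artificial chromosome that places *Egfp* under the control of the *Il11* gene. All mice had drunk 1.5% dextran sulfate sodium (DSS), an agent that injures the colonic epithelium, for 5 days before returning to water, and colons were digested on day 7. Cells negative for Ter119, CD45, CD31 and EpCAM were sorted by their EGFP signal, and neither group includes untreated animals. EGFP reports the activity of a transgene, so that the groups are defined by the reporter and not by IL-11 protein.

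Library totals were 1057170, 1078179 and 1169817 tags in EGFP-Negative replicates 1, 2 and 3 and 1046538, 1022851 and 1049048 tags in EGFP-Positive replicates 1, 2 and 3. At these depths, 3 tags, taken as the floor, equal 2.56 to 2.93 CPM, a unit that expresses the tags of a gene relative to the library total, and this floor covers counting error only because tags were amplified by PCR. *Il11* itself had 28, 51 and 89 tags in EGFP-Negative and 1357, 732 and 2658 tags in EGFP-Positive libraries, in the direction of the labels. The genes of the surface markers used to deplete other cells were close to 0, with at most 7 tags for *Ptprc* (CD45) and at most 1 tag for *Pecam1* (CD31) and *Epcam* in any library. The precursor of ribosomal RNA, *Rn45s*, took 2.96%, 3.07% and 3.41% of the tags in EGFP-Negative and 3.92%, 3.61% and 3.47% in EGFP-Positive replicates 1, 2 and 3, without overlap. Symbols with a tag numbered 15845 to 16028 in EGFP-Negative and 14993 to 15196 in EGFP-Positive libraries. The part of these differences in the results for *Bmp4*, *Bmp5*, *Bmp7* and *Gdf10* was not tested.

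The comparison used edgeR's quasi-likelihood test, p-values were adjusted by Benjamini-Hochberg over all tested genes, and a gene was called higher or lower at an adjusted p under 0.05 together with a fold change over 2. Normalized CPM are CPM scaled by the trimmed mean of M values (TMM), which sets the bulk of the genes to equal levels. Of the 10 genes, 9 had at least 10 tags in at least 3 libraries and were tested; *Bmpr1b* was not. *Bmp4*, *Bmp5* and *Bmp7* were called higher and *Gdf10* was called lower in EGFP-Positive cells, and the other 5 tested genes were not called. Among all 9334 tested genes, 3.44% were called higher and 6.37% lower. By adjusted p alone, without the fold threshold, 5 of the 9 genes passed, compared with 15.5% of all tested genes. The EGFP-Positive libraries lay above the EGFP-Negative libraries without overlap for 5 of the 9 genes (14.5% of all tested genes) and below them for 0 of the 9 (16.7%); with 3 against 3 libraries, 10% of genes would separate by chance if libraries are not paired, both directions together. Their median log2 fold change was 0.51, against -0.01 for all tested genes. In sorted bulk RNA, a different number of cells of a type and a different amount of RNA per cell cannot be told apart.

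**Figure D1:**
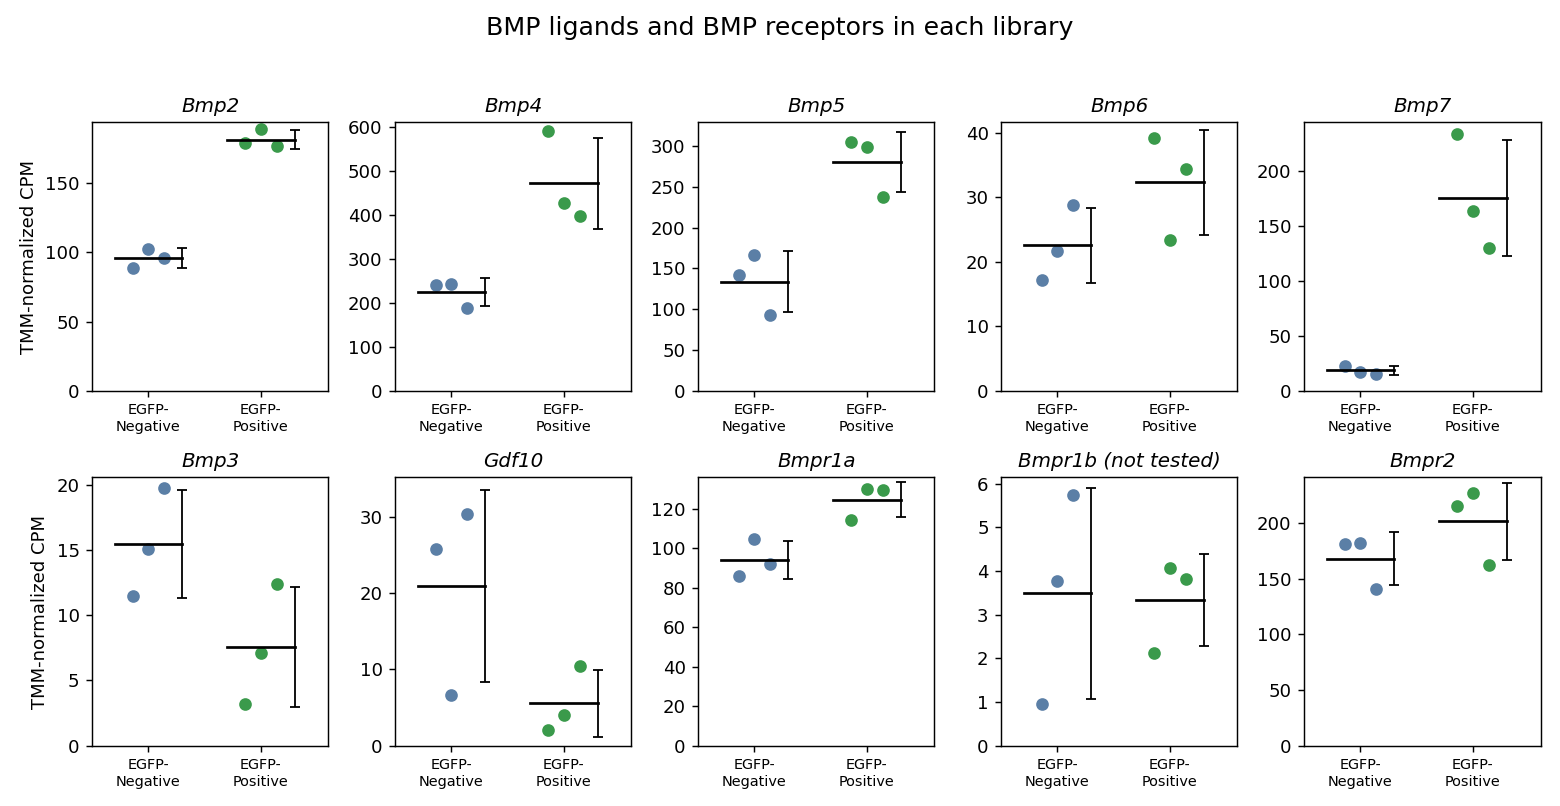
Normalized CPM (TMM scaling, linear axis from 0, own scale for each gene) of the 10 genes in each library. Points are the 3 libraries of a group in the order of their replicate numbers, horizontal lines are group means and bars are SD. The groups are separate for *Bmp2*, *Bmp4*, *Bmp5*, *Bmp7* and *Bmpr1a*.

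The difference was greatest for *Bmp7* (chromosome 2, 172868012 to 172940321, minus strand, GRCm38), which encodes a ligand of the same subgroup as BMP5 and BMP6. Its tags numbered 24, 18 and 19 in EGFP-Negative and 220, 161 and 136 in EGFP-Positive replicates 1, 2 and 3. Every EGFP-Positive library was thus far above every EGFP-Negative library, with replicate 1 the highest of its group. *Bmp7* rose from 18.5 ± 3.89 to 175 ± 52.8 normalized CPM (SD, n = 3). Its log2 fold change was 3.24 with SE 0.251 (adjusted p = 8.31e-08). This is a 9.47-fold difference, with a 95% interval of 6.57 to 13.6. Under all alternative settings and with any library left out, *Bmp7* was called higher, with log2 fold changes of 2.99 to 3.43.

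*Bmp4* (chromosome 14, 46383520 to 46390669, minus strand), which encodes a ligand closely related to BMP2, had 253, 258 and 230 tags in EGFP-Negative and 557, 421 and 416 tags in EGFP-Positive libraries. The groups did not overlap, and EGFP-Positive replicate 1 was again the highest. The log2 fold change was 1.07 (95% interval 0.68 to 1.46, adjusted p = 0.00046), just over the fold threshold. It was under that threshold when only library size was used for scaling (0.98), without EGFP-Negative replicate 3 (0.94) and without EGFP-Positive replicate 1 (0.89).

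*Bmp5* (chromosome 9, 75775364 to 75900310, plus strand) had 149, 176 and 113 tags in EGFP-Negative and 288, 294 and 249 tags in EGFP-Positive libraries. The lowest EGFP-Positive library was above the highest EGFP-Negative one. Its level rose from 134 ± 37.3 to 280.4 ± 37.3 normalized CPM (SD, n = 3). This corresponds to 1.07 on the log2 scale (95% interval 0.65 to 1.49, adjusted p = 0.000904). *Bmp5* was under the fold threshold with library-size scaling (0.99) and without EGFP-Negative replicate 3 (0.84).

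*Bmp2* (chromosome 2, 133552159 to 133562885, plus strand) was the member closest below the fold threshold. It had 93, 109 and 117 tags in EGFP-Negative and 169, 186 and 185 tags in EGFP-Positive libraries, and the spread within each group was small. Its 95.9 ± 6.95 and 181 ± 6.54 normalized CPM (SD, n = 3) differed by 0.92 on the log2 scale (95% interval 0.58 to 1.26, adjusted p = 0.000544), or 1.89-fold. *Bmp2* thus passed the adjusted p but not the fold threshold, and its interval overlaps those of *Bmp4* and *Bmp5*, so that the call separates genes whose estimates differ by less than their error.

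*Bmp6* (chromosome 13, 38345107 to 38500302, plus strand) was sparse, with 18, 23 and 35 tags in EGFP-Negative and 37, 23 and 36 tags in EGFP-Positive libraries. The groups overlapped. Its log2 fold change of 0.51 had a 95% interval of -0.11 to 1.12 (adjusted p = 0.29), whose upper bound is 2.17-fold, and no difference was called.

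*Gdf10* and *Bmp3* encode a pair of closely related ligands that stand apart from the other BMPs in sequence, and BMP3 is known to oppose the activity of other BMPs. *Gdf10* (chromosome 14, 33923587 to 33937983, plus strand) had 27, 7 and 37 tags in EGFP-Negative and 2, 4 and 11 tags in EGFP-Positive libraries. EGFP-Negative replicate 2 was below EGFP-Positive replicate 3, so the groups overlapped, although *Gdf10* was lower in the EGFP-Positive library of each replicate number. *Gdf10* fell from a mean of 20.9 ± 12.6 to 5.56 ± 4.38 CPM after normalization (SD, n = 3), which is -1.87 on the log2 scale (95% interval -3.03 to -0.71, adjusted p = 0.0261). With the replicate numbers as a block, adjusted p was 0.00151. The call of *Gdf10* was lost without EGFP-Positive replicate 1 (adjusted p = 0.107) or 2 (0.102), and adjusted p ranged from 0.0005 to 0.13 over all settings. Without EGFP-Negative replicate 1 or 3, or without EGFP-Positive replicate 3, *Gdf10* no longer had 10 tags in 3 libraries. On the genes tested with all 6 libraries, these 3 fits gave log2 fold changes of -1.71, -1.49 and -2.72 (adjusted p = 0.0941, 0.13 and 0.00806), respectively.

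*Bmp3* (chromosome 5, 98854415 to 98884396, plus strand) had 12, 16 and 24 tags in EGFP-Negative and 3, 7 and 13 tags in EGFP-Positive libraries. Here too the groups overlapped, through a single pair of libraries, and *Bmp3* was lower in the EGFP-Positive library of each replicate number. The log2 fold change was -1.004 (95% interval -1.94 to -0.07, adjusted p = 0.149), and *Bmp3* was not called. It was called lower only when EGFP-Positive replicate 3 was left out (log2 fold change -1.56, adjusted p = 0.0419), and adjusted p ranged from 0.0419 to 0.41 over all settings.

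The 7 ligand genes together had 576, 607 and 575 tags in EGFP-Negative and 1276, 1096 and 1046 tags in EGFP-Positive libraries. In normalized CPM their sum was 531 ± 52.4 and 1154 ± 181 (SD, n = 3), a ratio of 2.17, and the groups did not overlap (p = 0.1, two-sided exact permutation test, the smallest p that 3 against 3 libraries allow). Taken as pairs by replicate number, the 3 differences gave an exact p of 0.25, two-sided, again the smallest possible, and either p only restates the direction of all libraries. The composition of the ligand tags differed mainly in *Bmp7*. It made up 4.17%, 2.97% and 3.30% of them in EGFP-Negative and 17.2%, 14.7% and 13.0% in EGFP-Positive libraries. The mean share of *Bmp7* was 3.48% ± 0.619 and 14.98% ± 2.13 (SD, n = 3; exact permutation p = 0.1, or 0.25 for pairs, two-sided, each the smallest possible). *Bmp4* provided 42.1% ± 1.99 and 40.6% ± 2.72 and *Bmp5* 24.8% ± 4.76 and 24.4% ± 2.19 of the ligand tags, differences smaller than the spread between libraries. *Bmp3* and *Gdf10* together provided 7.06% ± 3.42 in EGFP-Negative and 1.23% ± 0.971 in EGFP-Positive libraries.

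**Figure D2:**
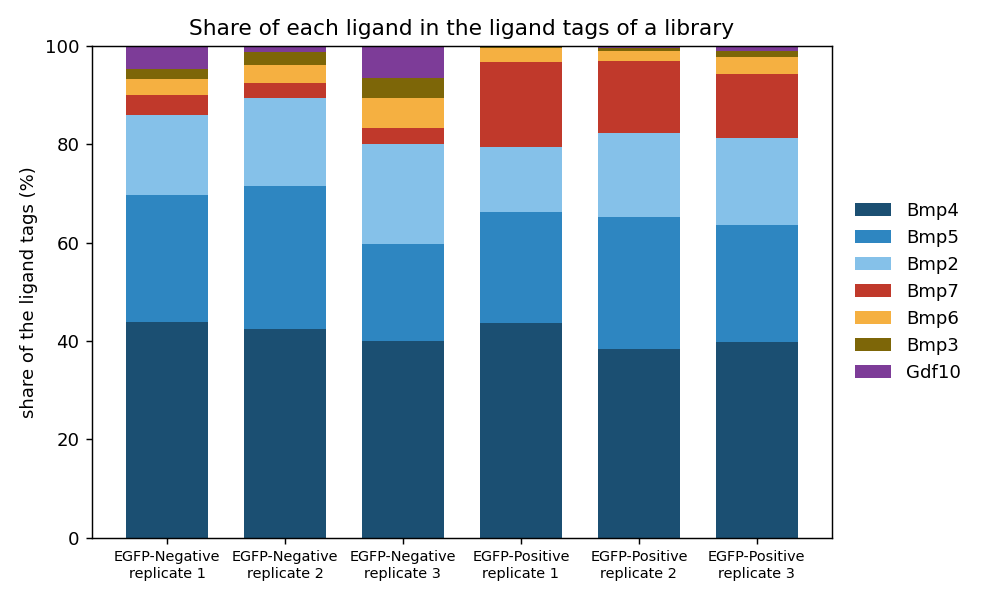
Share of each ligand gene (percent) in the summed tags of the 7 ligand genes, with 1 bar for each library. *Bmp7* takes 2.97% to 4.17% of the bar in EGFP-Negative and 13.0% to 17.2% in EGFP-Positive libraries.

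None of the receptor genes was called by edgeR's quasi-likelihood test or by DESeq2, and 1 of the 2 tested had an unadjusted p under 0.05, as had 26.7% of all tested genes. This was *Bmpr1a* (chromosome 14, 34410734 to 34503341, minus strand), with 90, 111 and 112 tags in EGFP-Negative and 108, 128 and 136 tags in EGFP-Positive libraries. On the normalized scale its groups were separate by a small margin. The log2 fold change was 0.41 (95% interval 0.05 to 0.76, adjusted p = 0.122), whose upper bound is 1.69-fold. *Bmpr2* (chromosome 1, 59763400 to 59879014, plus strand) had 190, 193 and 171 tags in EGFP-Negative and 203, 224 and 170 tags in EGFP-Positive libraries. These overlapped, with a log2 fold change of 0.26 (95% interval -0.11 to 0.64, adjusted p = 0.387). *Bmpr1b* (chromosome 3, 141837136 to 142169425, minus strand) was near the floor in all libraries, with 1, 4 and 7 tags in EGFP-Negative and 2, 4 and 4 tags in EGFP-Positive libraries. Its sums of 12 and 10 tags correspond to exact Poisson 95% intervals of 1.86 to 6.30 and 1.61 to 6.18 CPM, for counting error only. Together the 3 receptor genes stood at 266 ± 26.1 and 329.6 ± 33.0 normalized CPM (SD, n = 3).

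Levels of different genes were compared per kilobase (kb) of the longest coding transcript, although tags from the 5′ side need not increase with length, and the order depends on this division. In EGFP-Negative cells the order of the level was *Bmp4* (109 ± 14.96 CPM per kb), *Bmp5* (35.0 ± 9.75), *Bmp2* (27.0 ± 1.96), *Bmpr1a* (15.8 ± 1.598), *Bmpr2* (13.0 ± 1.84), *Bmp6* (6.27 ± 1.62), *Bmp7* (5.04 ± 1.06), *Gdf10* (4.02 ± 2.42), *Bmp3* (2.33 ± 0.626) and *Bmpr1b* (0.653 ± 0.45). The neighbors *Bmp5* and *Bmp2*, and those from *Bmp6* to *Bmp3*, did not differ beyond the larger SD of each pair. In EGFP-Positive cells *Bmp4* (228 ± 50.4 CPM per kb) and *Bmp5* (73.4 ± 9.77) again led. *Bmp7* (47.8 ± 14.4 CPM per kb) now stood level with *Bmp2* (51.0 ± 1.84), above *Bmpr1a* (20.9 ± 1.49), *Bmpr2* (15.6 ± 2.69) and *Bmp6* (8.99 ± 2.26), while *Bmp3* (1.14 ± 0.70), *Gdf10* (1.07 ± 0.841) and *Bmpr1b* (0.623 ± 0.198) were not separate from each other. Without division by length, *Bmpr2* was second to *Bmp4* in EGFP-Negative cells (168 ± 23.8 and 225 ± 30.9 normalized CPM, SD, n = 3), with a mean above that of *Bmp5* (134 ± 37.3) but within its spread. In EGFP-Positive cells it then had a mean of 202 ± 34.7 CPM, above the means of *Bmp2* (181 ± 6.54) and *Bmp7* (175 ± 52.8) by less than its own SD, so the place of *Bmp7* above *Bmpr2* holds per kb only.

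The profiles over the 6 libraries were also compared, as log2 normalized CPM centered on the mean of each gene. *Bmp4* and *Bmp5* were the most alike of the tested members, with a root mean square difference of 0.18, followed by *Bmpr1a* and *Bmpr2* (0.235) and by *Bmp4* and *Bmp2* (0.237). *Bmp7* was 1.03 from its nearest member, *Bmp4*, and *Gdf10* was 0.70 from *Bmp3*. Among the 5063 genes averaging 30 tags or more, the 3 closest to *Bmp7* were *Nrg1* (0.14), *Igfbp5* (0.17) and *Ces1f* (0.21). *Nrg1* encodes an ERBB ligand and *Igfbp5* an IGF-binding protein, with log2 fold changes of 3.11 and 3.15. For *Bmp4* they were *Pde4d* (0.08), *Rpl28* (0.09) and *Mmp14* (0.11), and for *Bmp5* they were *Car13* (0.07), *Sept9* (0.11) and *Ptprk* (0.11). *Gdf10* had no close neighbor by this measure, the nearest being *Aldh1a3* (0.45), *Ntn1* (0.54) and *Gsn* (0.54).

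The other genes of the pathway were examined by list. Of the 4 other BMP ligand genes with counts (*Bmp8a*, *Bmp8b*, *Gdf5* and *Gdf6*), 0 reached the filter, and no library had more than 7 tags of any of them. Among other receptors and co-receptors, 0 of 8 tested genes were called higher and 1 lower, compared with 3.44% and 6.37% of all tested genes (list median log2 fold change -0.16). The gene called lower was *Rgmb*, a co-receptor gene, with 57, 65 and 72 tags in EGFP-Negative and 25, 37 and 24 tags in EGFP-Positive libraries (log2 fold change -1.01, adjusted p = 0.00593). *Rgmb* did not pass the fold threshold with DESeq2 (-0.997), RLE scaling (-0.995) or no filter (-0.97). The same held without EGFP-Positive replicate 3 (-0.85), EGFP-Positive replicate 1 (-0.94) or EGFP-Negative replicate 2 (-0.98), and, on the genes tested with all 6 libraries, without EGFP-Negative replicate 3 (-0.996). *Acvr1*, which encodes another type I receptor for BMPs, had 80, 80 and 85 tags in EGFP-Negative and 131, 121 and 153 tags in EGFP-Positive libraries. Like *Bmp2*, it passed the adjusted p but not the fold threshold (log2 fold change 0.88, adjusted p = 0.00116). The type II receptor gene *Acvr2a* had a log2 fold change of -0.74 (adjusted p = 0.178), and *Acvr2b*, with 9, 17 and 12 against 4, 3 and 3 tags, was not tested.

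Of 10 tested antagonist genes, 2 were called higher and 1 lower (list median 0.02), compared with 3.44% and 6.37% of all tested genes. *Grem1* (log2 fold change 1.61, adjusted p = 7.47e-06) and *Chrdl2* (1.59, adjusted p = 0.00155) rose with the ligands *Bmp4*, *Bmp5* and *Bmp7*. *Chrdl1* (-4.16, adjusted p = 4.55e-07) fell, from 73, 67 and 86 tags to 2, 1 and 8 tags. Its log2 fold change ranged from -5.34 to -3.72 over all settings in which it was tested. The chordin-like paralogs *Chrdl1* and *Chrdl2* therefore moved in opposite directions. *Chrdl1*, like *Chrd* and *Pcsk6* below, reached 10 tags in EGFP-Negative libraries only. These genes entered the test through the group in which they are high, so lower was close to the only call possible. With the filter on all 6 libraries they were not tested. Nor were they tested without an EGFP-Negative library, except on the genes tested with all 6 libraries. *Chrd* had a log2 fold change of -0.93 (adjusted p = 0.125), and *Nog*, with 9, 3 and 10 against 2, 2 and 1 tags, was not tested. Among the genes of BMP proprotein processing, 0 of 5 tested were called higher and 1 lower, compared with 3.44% and 6.37% of all tested genes. The gene called was *Pcsk6*, a proprotein convertase gene. It was lower (log2 fold change -1.55, adjusted p = 0.0204), but not with DESeq2 (adjusted p = 0.0628) or without EGFP-Positive replicate 1 or 2 (0.0707 and 0.0773), nor without EGFP-Negative replicate 2 on the genes tested with all 6 libraries (0.12), in a range of 0.0128 to 0.12 over all settings.

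Downstream of the receptors, 0 of 9 tested genes of BMP SMADs and their regulators were called by edgeR's quasi-likelihood test or by DESeq2, and 0 had an unadjusted p under 0.05 (26.7% of all tested genes). *Smad1* and *Smad5* encode SMADs phosphorylated by BMP receptors and *Smad4* their common partner. Their log2 fold changes were 0.30, -0.06 and -0.16, and the sign of the last pair was not the same under all settings. Of 7 tested BMP target genes, 0 were called by either test and 1 had an unadjusted p under 0.05 (26.7% of all tested genes). Their median log2 fold change was -0.35, and for 4 of the 7 the EGFP-Positive libraries lay below the EGFP-Negative ones without overlap, as for 16.7% of all tested genes. *Bambi*, which is 1 of the 4, is also on the receptor list, and *Smad6* and *Smad7* are also on the SMAD list. *Id1*, a gene induced by BMP-activated SMADs in many cells, was the one with that p, with 249, 259 and 262 tags in EGFP-Negative and 172, 202 and 140 tags in EGFP-Positive libraries (log2 fold change -0.42, adjusted p = 0.13). With the replicate numbers as a block it passed the adjusted p (0.0322, log2 fold change -0.44) but not the fold threshold, in a range of 0.0322 to 0.41 over all settings. The ligand genes *Bmp4*, *Bmp5* and *Bmp7* were called higher, and no tested target gene of the list was called in either direction. Of all tested genes, 3.44% were called higher and 6.37% lower, so 0 of 7 target genes and 0 of 9 SMAD list genes are near that share. The estimate for *Smad7* was positive (log2 fold change 0.25). A difference between these lists was not tested.

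**Figure D3:**
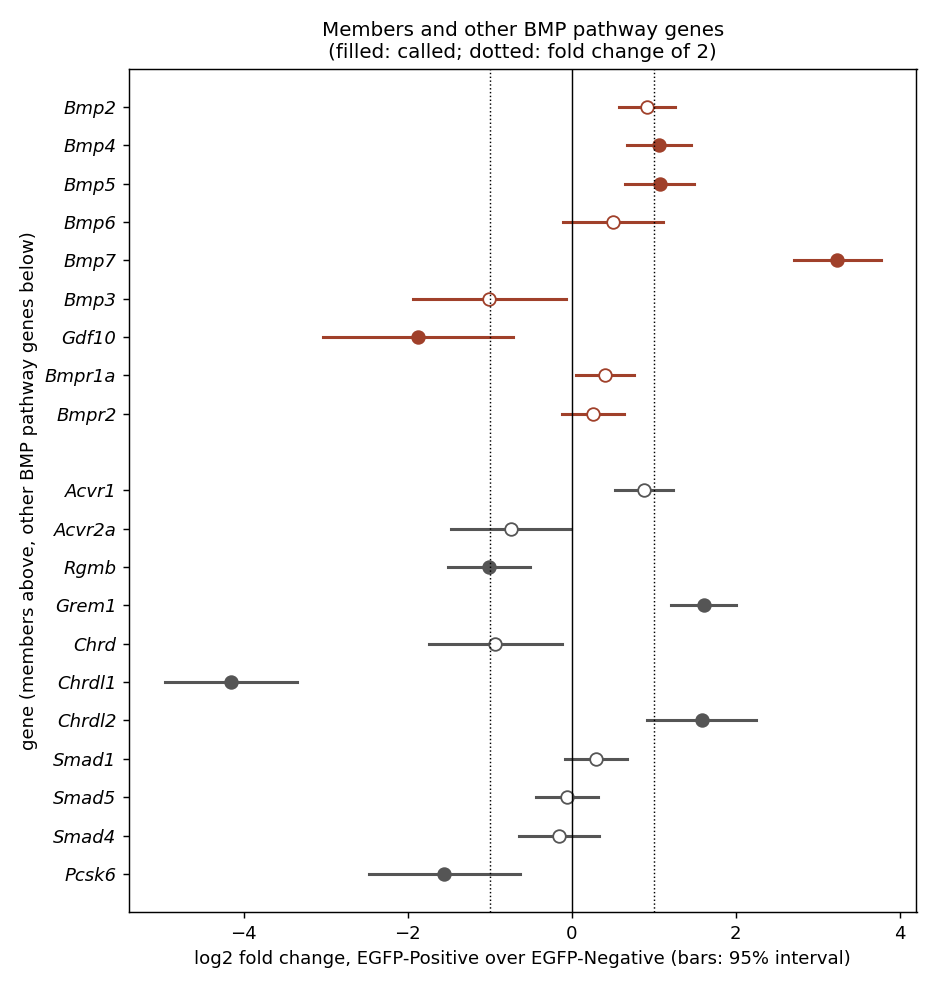
Log2 fold change of EGFP-Positive over EGFP-Negative libraries for the 9 tested members and for 11 other genes of the BMP pathway. Points are estimates, bars are 95% intervals, filled points are called genes and dotted lines mark a fold change of 2. *Bmp7* lies highest at 3.24 and *Chrdl1* lowest at -4.16.

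Markers of other stromal cells also differed between the sorted groups. For comparison, 3.44% of all tested genes were called higher and 6.37% lower. Some markers called lower, among them *Gfap*, reached 10 tags in EGFP-Negative libraries only, so lower was close to the only call possible for them. All 8 smooth muscle and myofibroblast markers were lower in EGFP-Positive cells. Their sum was 2615, 3284 and 4058 normalized CPM in EGFP-Negative and 103, 155 and 339 in EGFP-Positive libraries. *Myh11* was the most abundant in EGFP-Negative cells (931 CPM) but not in EGFP-Positive cells (39.2 CPM). Pericyte markers, led by *Rgs5*, were mixed: 4 of 7 genes were called lower (list sum 2358 and 927 CPM), while *Abcc9* (log2 fold change 0.66, adjusted p = 0.0167) and *Kcnj8* (0.71, adjusted p = 0.0394) differed upward without passing the fold threshold. *Abcc9* was the most abundant of the list in EGFP-Positive cells (417 CPM, against 190.1 CPM for *Rgs5*). The 1 tested marker of enteric glia (*Gfap*, the most abundant of those analysed in EGFP-Negative only, list sum 53.8 and 2.03 CPM) and both of interstitial cells of Cajal (*Ano1* the most abundant, 181 and 7.35 CPM) were lower. The last sum was 205, 120 and 218 CPM in EGFP-Negative and 1.06, 0 and 21.0 CPM in EGFP-Positive libraries, beside 25.8, 6.60 and 30.4 and then 2.12, 4.06 and 10.5 CPM of *Gdf10*. Mesothelium markers (13.4, 5.65 and 22.2, then 0, 0 and 1.91 CPM) and erythroid markers (57.3, 0 and 189, then 9.54, 0 and 11.4 CPM) were likewise lowest in EGFP-Negative replicate 2 and highest in EGFP-Negative replicate 3 within that group, as were the sums of enteric glia, endothelium and epithelium markers. The fibroblast sum had the same order, by a small margin between replicates 1 and 2. Sums of pericyte (2681.1, 2288.5 and 2105.4 CPM), subepithelial fibroblast and immune markers were instead highest in EGFP-Negative replicate 1 and lowest in EGFP-Negative replicate 3. Those of smooth muscle and adventitial fibroblast markers rose from EGFP-Negative replicate 1 to 3. Adventitial fibroblast markers, with *C3* the most abundant, were lower for 4 of 6 tested genes (sum 5620 and 3889 CPM), and for 2 by DESeq2. Of the 9 fibroblast markers, 2 were called higher and 0 lower, and their sum was 22955 and 35499 CPM, with *Dcn* the most abundant. *Lum* differed downward without passing the fold threshold (log2 fold change -0.64, adjusted p = 0.0378). Of the 7 tested markers of subepithelial fibroblasts, which are known as a source of BMPs in the gut, 0 were called by edgeR's quasi-likelihood test or by DESeq2 and 1 had an unadjusted p under 0.05 (26.7% of all tested genes), at sums of 1061 and 1214 CPM with *Pdgfra* the most abundant. The part of these cell types in the differences of *Bmp4*, *Bmp5*, *Bmp7* and *Gdf10* was not tested. Markers of mesothelium (*Wt1* the most abundant, 13.7 and 0.636 CPM), endothelium (*Tek*, called lower, 33.5 and 11.3), epithelium (*Krt8*, the most abundant in EGFP-Negative only, 5.69 and 3.31) and immune cells (*Cd68*, 16.1 and 11.3) had sums under 40 CPM in each library. The mean of the erythroid markers (*Hbb-bs* the most abundant) was 82.0 CPM in EGFP-Negative and 6.99 CPM in EGFP-Positive libraries, and both replicate 2 libraries were at 0. Tags were at 0 in all EGFP-Positive libraries for *S100b*, *Sox10* and *Erbb3* of glia, *Msln*, *Upk3b*, *Krt19* and *Lrrn4* of mesothelium, *Pecam1* and *Lyve1* of endothelium, *Krt20* of epithelium and *Cd3e* of immune cells. These genes were sparse in EGFP-Negative libraries too, with at most 10 tags, and none was tested. *Pecam1*, *Lyve1*, *Cd3e*, *Msln* and *Lrrn4* had at most 3 tags, the floor, in every library.

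Sequence shared with other genes was measured over whole transcripts, and the positions of tags were not examined. Of the 50-base windows of the longest coding transcript, 0 occurred in transcripts of another gene for *Bmp2*, *Bmp6*, *Bmpr1a*, *Bmpr1b* and *Bmpr2*. The shares were 0.0282% for *Bmp7*, 0.0915% for *Bmp3*, 0.186% for *Bmp5*, 0.397% for *Bmp4* and 0.504% for *Gdf10*. On the same strand, *Bmp5* overlaps the annotated gene *Gm47723* and *Bmpr2* overlaps *Gm38125*.

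Because *Bmp4* and *Bmp5* rose together and *Gdf10* fell, the bases just upstream of their starts are shown. RefSeq promoter sequences (GRCm38.p6) were matched for 7 of the 10 members, and *Bmp2*, *Bmp3* and *Bmp7* had no entry. Each sequence is 5′ to 3′ on the strand of the gene, ends before the first annotated exon and covers 250 bases (249 for *Bmp5*): chr14:46390670-46390919 on the minus strand for *Bmp4*, chr9:75775115-75775363 on the plus strand for *Bmp5* and chr14:33923337-33923586 on the plus strand for *Gdf10*. Capitals mark the GC box GGGCGG on either strand.
Bmp4: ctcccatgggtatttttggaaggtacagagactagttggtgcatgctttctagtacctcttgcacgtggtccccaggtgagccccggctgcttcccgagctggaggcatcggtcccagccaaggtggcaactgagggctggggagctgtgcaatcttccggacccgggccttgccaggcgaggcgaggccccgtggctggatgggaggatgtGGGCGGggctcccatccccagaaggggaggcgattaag
Bmp5: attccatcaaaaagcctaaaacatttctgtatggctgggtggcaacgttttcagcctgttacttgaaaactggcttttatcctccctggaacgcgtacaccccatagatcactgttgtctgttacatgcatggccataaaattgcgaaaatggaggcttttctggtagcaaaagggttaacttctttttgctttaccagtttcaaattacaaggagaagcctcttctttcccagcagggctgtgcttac
Gdf10: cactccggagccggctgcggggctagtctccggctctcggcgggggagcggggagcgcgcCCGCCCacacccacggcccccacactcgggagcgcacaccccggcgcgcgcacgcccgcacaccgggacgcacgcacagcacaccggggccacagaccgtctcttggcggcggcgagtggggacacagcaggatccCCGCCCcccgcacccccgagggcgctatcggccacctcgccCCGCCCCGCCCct
The GC box was found once upstream of *Bmp4*, 0 times upstream of *Bmp5* and 4 times upstream of *Gdf10*, each time on the opposite strand and with 2 of the 4 overlapping by 1 base. It occurs in 32.7% of the 32851 promoters of the same table over the same 250 bases. The GC content was 63.2%, 43.0% and 78.8% for *Bmp4*, *Bmp5* and *Gdf10*, and the median over all promoters was 52.4%. Neither the GC-rich letters GGCGCC bound by BMP-activated SMADs (9.59% of promoters), the AP-1 motif TGANTCA (6.75%), the STAT motif TTCNNNGAA (7.02%), TATAAA (12.4%) nor CCAAT (33.8%) was found in these 3 windows on either strand. The genes that moved in the same direction, *Bmp4* and *Bmp5*, therefore shared none of the 6 motifs in these windows. A match is a description, not a site or a cause.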

How the data were processed

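Polyadenylated RNA of 6 libraries (3 EGFP-Negative, 3 EGFP-Positive) was read by 5′Tag-seq on an Ion Torrent sequencer. The authors trimmed reads with Cutadapt 1.18, mapped them with Bowtie2 2.2.5 to RefSeq RNA (mm10) in a single orientation and deposited 1 tag count per gene symbol and library, not normalized. How tags matching several genes were treated is not given in the sources used here. As printed, the methods drop genes having 10 tags or more, and this was read as keeping them.

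A gene needed 10 tags or more in 3 or more of the 6 libraries and was then fitted in R 4.3.3 with edgeR 4.0.16 (TMM, glmQLFit, glmQLFTest), with Benjamini-Hochberg adjustment over all 9334 tested genes. The fit was tested on simulated data. Figures were drawn in Python 3.11.15 with matplotlib 3.10.9, and 0 columns of the tag counts were not used. Alternatives were RLE, iterative TMM and library-size scaling, DESeq2 1.42.0, other filters, no fold threshold, a replicate block and each library left out; fits without a library on the genes tested with all 6 libraries were added after seeing the data.

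Replicate numbers come from the labels, and the study names 3 mice. Deviations of same-numbered libraries from their group means were correlated (r = 0.231, 0.186 and 0.268 across 5063 genes, which are not independent), and the numbers were taken to pair the libraries in the block. The labels do not say whether libraries of the same number share a mouse, and p-values measure the spread between these libraries.

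The members and the lists (pathway and cell type markers) were chosen with earlier results of these data known. The study itself reports *Bmp4* and *Grem1* transcripts as elevated in IL-11-producing fibroblasts. Named genes are the 10 members, pathway genes that were called or are direct partners of a member, the 3 genes with the most similar profile to each called member, label checks and the most abundant gene of each marker list; *Id1*, *Abcc9*, *Kcnj8*, *Lum*, *Rn45s* and the markers at 0 were named after their values were seen. Coordinates and transcripts come from GENCODE mouse release M21 (GRCm38). *Bmp10*, *Bmp15*, *Gdf2*, *Gdf7*, *Hfe2*, *Sost*, *Cer1*, *Cdh5* and *Cdh1* and some other genes of the lists were not analysed here.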

Additional observations from a re-analysis of the deposited data

How the results depend on the processing

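Calls of members that lie near a threshold depend on the processing. The number of members called higher was 3, and it was 1 (*Bmp7*) with library size only and 1 to 3 with a library left out. The number called lower was 1, and it was 0 with the filter of at least 10 tags in all 6 libraries, which *Gdf10* does not pass, and 0 to 2 with a library left out. Over all genes, adjusted p without a fold threshold gave 638 higher genes in place of 321. The filter on all 6 libraries, which leaves 7098 genes, gave 256 lower genes in place of 595, and leaving out a library gave 341 (without EGFP-Negative replicate 1) to 579, or 483 to 580 on the genes tested with all 6 libraries. A block for the replicate number gave 337 higher and 648 lower genes and changed no call of a member or a named pathway gene. Values in alternative settings were counted for the tested members and the tested pathway genes named here, with *Id2* and *Id3* and without *Bambi*. The other tested pathway genes were not counted. Each left-out library was counted for both sets of tested genes. The setting with no fold threshold was left out of the count. In that setting 4 members were called higher, with *Bmp2* added, and *Acvr1* passed as well. Of 456 values, 424 were called or not called as in the results above, 30 lost and 2 gained a call, and 0 called values reversed in sign. A gene not called could cross a single threshold, as *Id1* did under the block, and still be counted as unchanged. In 12 further settings a called gene (*Gdf10*, *Pcsk6* or *Chrdl1*) did not pass the filter and is not in these counts. Counts of *Bmp3*, *Gdf10* and *Bmp6* were low, and the part of this in their results was not tested.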
